A study of Mus musculus with 2 samples.

Results

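Genes of the lysosome were examined in white adipose tissue, which stores most body fat, of mice kept on a high-fat diet. The list held 38 genes chosen by function: 11 cathepsins, 9 other hydrolases, 2 lipid carriers or activators, 6 membrane proteins, 7 proton pump subunits and 3 transcription factors. Of these, 37 had a probe set with a single gene symbol, out of 19938 genes so named on the array. Atp6v0c, the proteolipid of the pump's membrane ring, had no such probe set and was not analysed here. The sample Oma1_KO is labelled as Oma1-deficient and the sample Oma1_WT as control. For both the labels give an age of 24 weeks and a high-fat diet for 20 weeks. Oma1 is a protease of the mitochondrial inner membrane, and the comparison asked how its loss altered transcript levels in fat. The labels give neither the strain, the sex, the fat depot, the kind of allele nor the number of mice behind an array.

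Lysosomes are acidic organelles in which hydrolases break down proteins, glycans, glycogen and lipids that arrive by endocytosis and autophagy. A proton pump, the V-ATPase, keeps their lumen acid, membrane proteins hold and export the contents, and the transcription factors TFEB, TFE3 and MITF switch on many lysosomal genes together through a short DNA element built on the E-box. In the fat of obese animals, macrophages that gather around dying adipocytes are rich in lysosomes and degrade the lipid that adipocytes release.

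Each genotype was measured on 1 Affymetrix Mouse Gene 1.0 ST array. No difference below therefore has a replicate check, no p-value is given, and the spread between animals is unknown. Values are the deposited intensities, in linear units. Differences are log2(intensity + 1) in Oma1_KO minus the same in Oma1_WT, a scale that understates changes of dim genes. Both arrays had a median intensity of 83 over 35512 probe sets. A gene counted as past the filter if its mean over the 2 arrays reached that median, as 11394 genes did. All 37 measured lysosomal genes passed it, in each array separately as well as on average. As a yardstick of technical scatter, the differences of 2 probe sets for 1 gene varied with an SD of 0.17 over 545 genes. This SD reflects only how far probe sets disagree on 1 pair of RNA samples. Oma1 itself read 155 in Oma1_KO and 187 in Oma1_WT, a difference of -0.27. The labels do not say which part of the transcript was disrupted, so its single probe set does not check the genotype.

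An E-box lay in a larger share of the promoters of these genes than of promoters at large. The table of RefSeq promoters (GRCm38.p6), with 250 bases before and 50 after each start site, held 39 windows for 29 of the 38 genes. Ctse, Ctsb, Ctsh, Galns, Npc1, Atp6v0d2, Atp6v1b2, Atp6v1c1 and Atp6v1h had no window, so their promoters were not searched. The hexamer CACGTG, which reads the same on both strands, lay in the windows of 12 of the 29 genes (41.4%), against 11.9% of 9107 genes past the intensity filter and 8.09% of all 27025 genes in the table. Counted by window, it lay in 30.8% of the 39, against 7.15% of all 32851. The longer palindrome TCACGTGA, which contains that hexamer and is the core of the element bound by TFEB, was found for 7 of the 29 genes (24.1%), against 2.23% of the genes past the filter and 1.12% of all genes. A related form, TCATGTGA on either strand, known as the M-box of MITF targets, was found for Gla, Ctss and Atp6v0c, or 10.3% of the 29, against 0.944% of the genes past the filter. The median GC content of the windows was 56.7% for the lysosomal genes, against 60.7% for the genes past the filter and 52.7% for all. These counts describe the letters only, were not tested, and involve no measurement of binding.

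**Figure D1:**
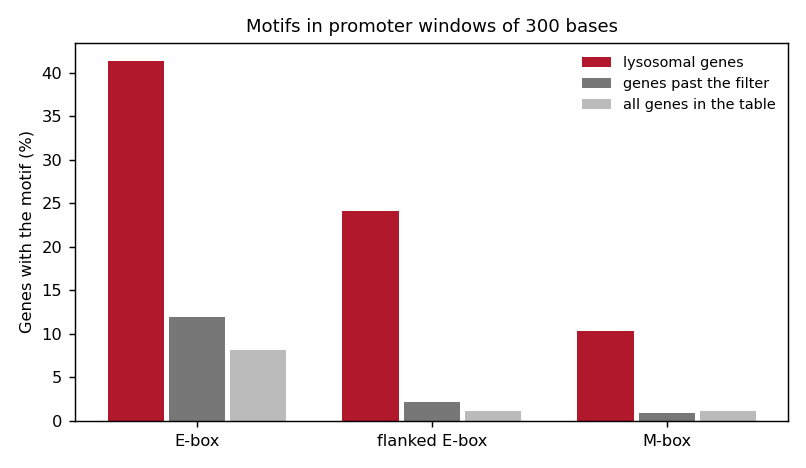
Share of genes (%) whose promoter windows of 300 bases hold each motif, for the 29 lysosomal genes with a window (red), for genes past the intensity filter (dark grey) and for all genes in the table (light grey). The E-box stood at 41.4%, 11.9% and 8.09%, and the flanked E-box at 24.1%, 2.23% and 1.12%.

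The stretches with the longer palindrome, and that of Lamp1 with its 4 E-boxes, are shown because the E-box is a feature of the group that the choice by function did not use. They are written in the direction of transcription, and capitals mark CACGTG, or TCACGTGA where both flanking letters matched.
Mcoln1, chr8:3500427-3500500, plus strand: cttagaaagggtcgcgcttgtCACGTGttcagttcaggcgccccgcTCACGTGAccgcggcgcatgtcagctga
Lamp1, chr8:13159079-13159172, plus strand: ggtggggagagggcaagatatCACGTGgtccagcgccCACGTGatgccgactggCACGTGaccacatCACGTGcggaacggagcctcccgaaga
Cln3, chr7:126583331-126583406, minus strand: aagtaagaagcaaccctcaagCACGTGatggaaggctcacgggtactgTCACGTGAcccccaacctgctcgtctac
Atp6v0d1, chr8:105566041-105566088, minus strand: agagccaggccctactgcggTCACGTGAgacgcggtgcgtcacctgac
Atp6v1a, chr16:44139364-44139411, minus strand: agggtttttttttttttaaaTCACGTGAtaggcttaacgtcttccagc
Ctsa, chr2:164833740-164833802, plus strand: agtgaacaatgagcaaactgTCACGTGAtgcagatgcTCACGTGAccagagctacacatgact
Ctsd, chr7:142387899-142387946, minus strand: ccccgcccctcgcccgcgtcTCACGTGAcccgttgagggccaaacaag
Gla, chrX:134601173-134601253, minus strand: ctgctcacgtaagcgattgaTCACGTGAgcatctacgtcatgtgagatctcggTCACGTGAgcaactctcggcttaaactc
The first palindrome began 4 bases before the start site in Atp6v0d1, 13 in Ctsa, 46 in Mcoln1 and 99 in Ctsd. In Cln3 it began 122 bases before, in Atp6v1a 132 and in Gla 228. Ctsa and Cln3 had 2 windows each, of which only 1 held the palindrome. Ctsd had a second E-box, without the flanking letters, 245 bases before the start site. The 12 genes with an E-box were cathepsins (Ctsa, Ctsd, Ctsf, Ctsl), glycan and glycogen hydrolases (Gaa, Gla, Glb1), membrane proteins (Lamp1, Cln3, Mcoln1) and pump subunits (Atp6v0d1, Atp6v1a). No E-box letters lay in the windows of Tfeb, Tfe3 and Mitf.

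Across the 2 arrays the lysosomal genes differed little, apart from Ctse. Only Ctse was at least 1.5-fold higher in Oma1_KO, 1 of 37 genes (2.70%), against 1.26% of all genes past the filter. None of the 37 was at least 1.5-fold lower, against 1.75% of all genes. The other 36 genes ranged from -0.29 to 0.34 on the log2 scale. Small differences leaned upwards: 23 of 37 were higher in Oma1_KO and 14 lower, whereas 36.6% of all genes were higher and 62.3% lower. The median was 0.05 for the lysosomal genes and -0.06 for all genes. Quantile normalisation placed these medians at 0.08 and -0.01, and with it 24 lysosomal genes and 46.9% of all genes were higher, so the direction of a difference near 0 depends on the scaling.

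**Figure D2:**
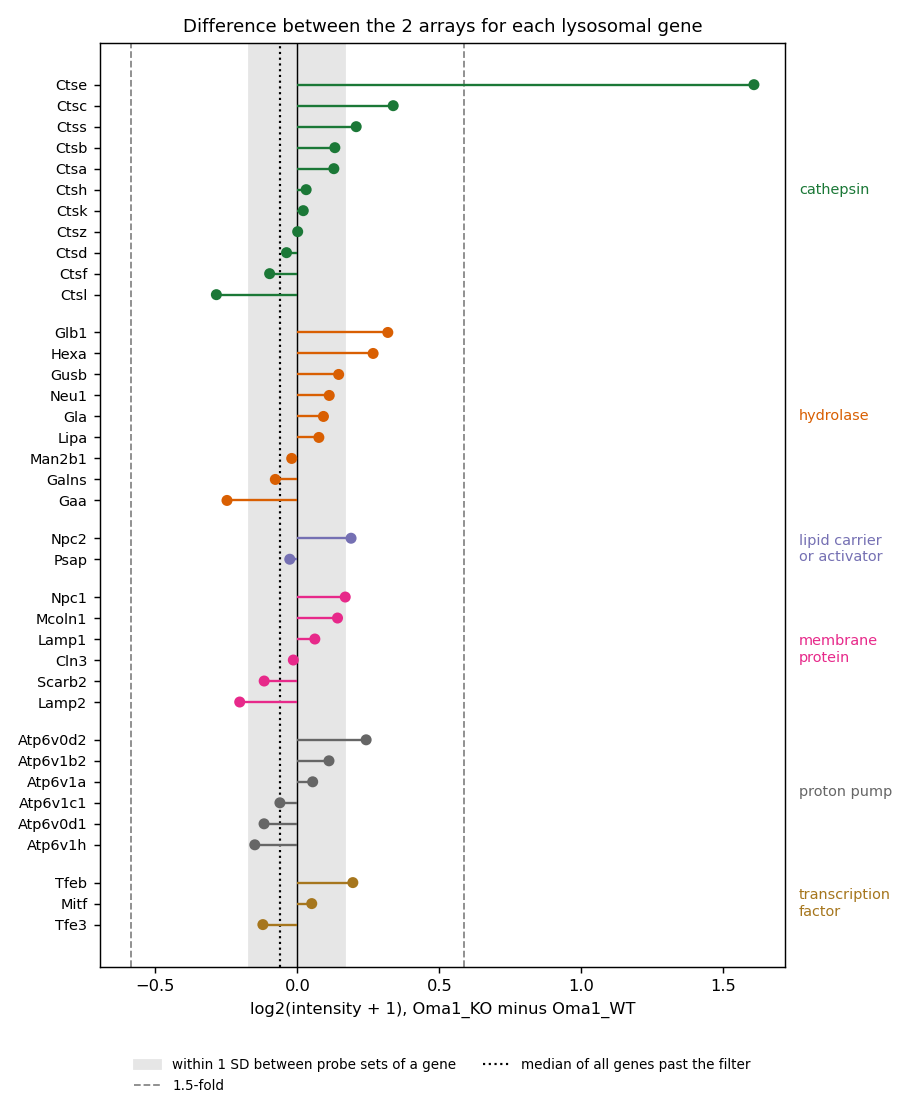
Difference between the arrays (log2(intensity + 1), Oma1_KO minus Oma1_WT) for each of the 37 measured lysosomal genes, grouped by role; the grey band is 1 SD between probe sets, dashed lines mark 1.5-fold and the dotted line is the median of all genes past the filter. Ctse lies at 1.61 and the other 36 genes between -0.29 and 0.34.

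Measured against the SD of 0.17, 8 of the 37 genes (21.6%) were higher by more than that, where 13.5% of all genes were. These were Ctse, Ctsc, Glb1, Hexa, Atp6v0d2, Ctss, Tfeb and Npc2. Lower by more than the SD were 3 genes (8.11%), Ctsl, Gaa and Lamp2, where 27.5% of all genes were. With differences centred on the median of all genes, these counts became 15 higher and 2 lower, where 19.6% of all genes were higher and 18.5% lower by more than the SD. Cathepsins and hydrolases stood on both sides.

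**Figure D3:**
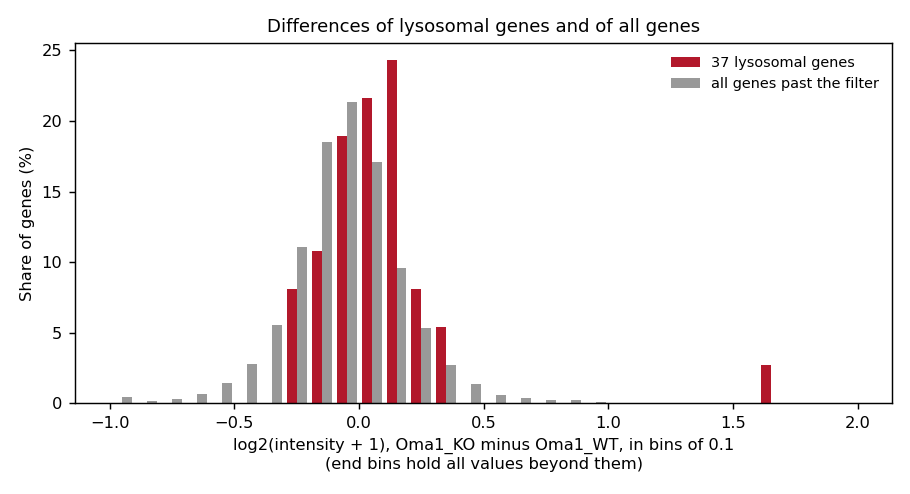
Share of genes (%) per bin of 0.1 in log2 difference, for the 37 lysosomal genes (red) and the 11394 genes past the filter (grey). The lysosomal genes centre on 0.05 and all genes on -0.06, and Ctse stands alone at 1.61.

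Cathepsins are the proteases of the lysosome, and 8 of the 11 were higher and 3 lower in Oma1_KO, with a median of 0.03. Ctse, an aspartic protease of endosomes known from immune cells and gastric epithelium, read 322 in Oma1_KO and 105 in Oma1_WT. The Oma1_KO array was thus 3.05-fold higher on the log2(intensity + 1) scale, a difference of 1.61. At least 2-fold higher were 0.272% of all genes, and 7 of the 11394 had a larger difference than Ctse. Its value in Oma1_WT lay close above the median of all probe sets, so the size of the ratio is uncertain, and with a pseudocount of 16 the difference was 1.48.

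Ctsd, the main aspartic protease of the lysosome and related to cathepsin E, read 10688 in Oma1_KO and 10974 in Oma1_WT, a difference of -0.04. The 2 aspartic cathepsins therefore went apart, with Ctsd inside the scatter between probe sets.

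The cysteine cathepsins numbered 8. Ctsc, a dipeptidyl peptidase that activates the granule proteases of mast cells, neutrophils and cytotoxic lymphocytes, read 3432 in Oma1_KO and 2716 in Oma1_WT, a difference of 0.34 that 513 of all genes exceeded. Ctss, which cleaves the invariant chain in antigen-presenting cells, read 2212 in Oma1_KO and 1916 in Oma1_WT (0.21). Ctsl, a broad endopeptidase, read 6306 in Oma1_KO and 7684 in Oma1_WT (-0.29), and 1439 genes lay lower. Ctsc and Ctss were thus high and Ctsl low in the same Oma1_KO array.

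The remaining cysteine cathepsins stayed within the SD between probe sets. Ctsb, an endopeptidase and exopeptidase, read 11467 in Oma1_KO and 10464 in Oma1_WT (0.13). Ctsh, an aminopeptidase, read 1129 in Oma1_KO and 1105 in Oma1_WT (0.03). Ctsk, the collagen-degrading protease of osteoclasts, read 977 in Oma1_KO and 963 in Oma1_WT (0.02), and Ctsz, a carboxypeptidase, 6371 in Oma1_KO and 6366 in Oma1_WT (0.0011). Ctsf read 442 in Oma1_KO and 473 in Oma1_WT (-0.10). None of these 5 could be told apart between the arrays on that yardstick, though with centring on all genes Ctsb (0.19) passed it.

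Ctsa, a serine carboxypeptidase, binds and protects the sialidase Neu1 and the beta-galactosidase Glb1 in a complex. All 3 read higher in Oma1_KO. Ctsa read 4060 in Oma1_KO and 3714 in Oma1_WT (0.13), Neu1 333 in Oma1_KO and 308 in Oma1_WT (0.11), and Glb1 837 in Oma1_KO and 671 in Oma1_WT (0.32). Of them only Glb1 exceeded the SD between probe sets. With centring on all genes Ctsa (0.19) passed it too, and Neu1 did so narrowly (0.173, against 0.169).

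**Figure D4:**
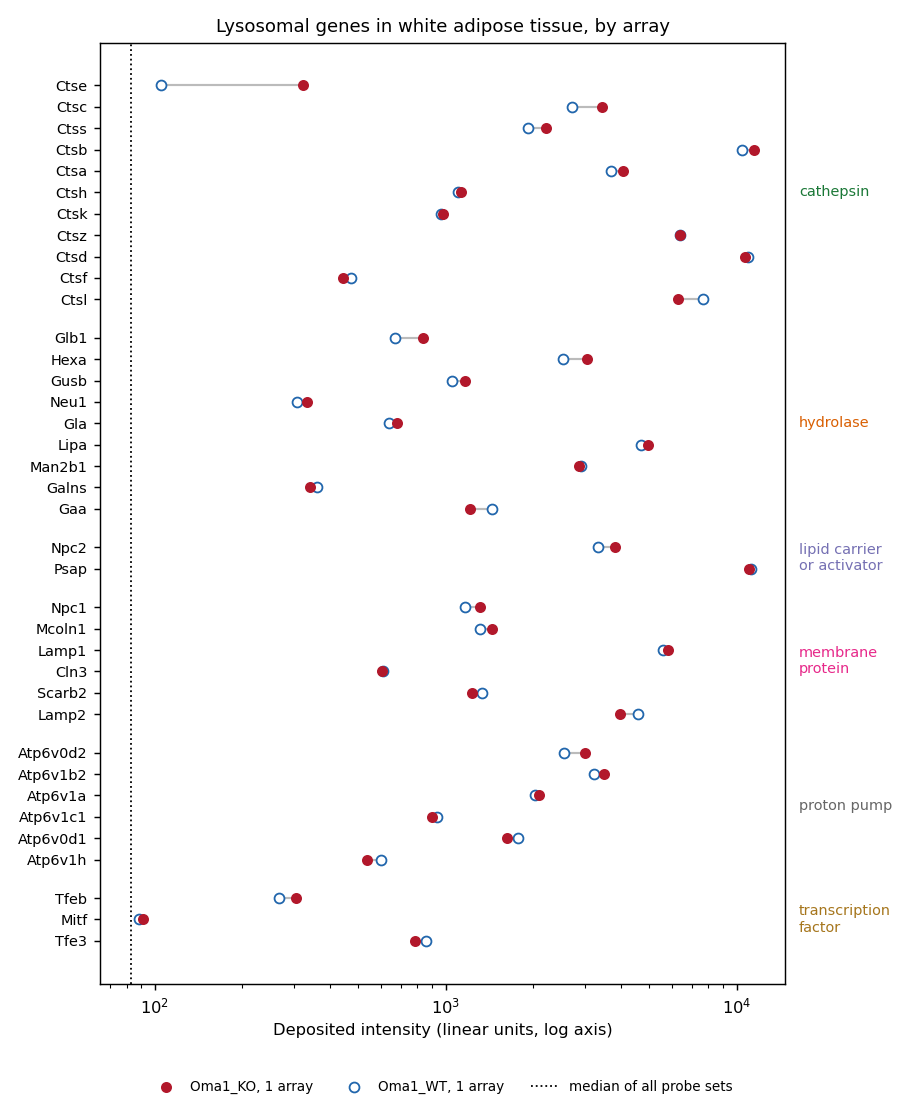
Deposited intensity (linear units on a log axis) of each measured lysosomal gene in the Oma1_KO array (filled) and the Oma1_WT array (open), grouped by role; the dotted line is the median of all probe sets, 83. Ctse reads 322 in Oma1_KO and 105 in Oma1_WT, and for the other genes the points lie close together.

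Of the 9 hydrolases 6 were higher and 3 lower, with a median of 0.09. Hexa, the alpha subunit of the hexosaminidase that degrades GM2 ganglioside, read 3050 in Oma1_KO and 2535 in Oma1_WT (0.27). Gaa, the acid alpha-glucosidase that degrades glycogen, read 1216 in Oma1_KO and 1444 in Oma1_WT (-0.25). Hexa and Gaa thus lay past the SD between probe sets in opposite directions. Lipa, the acid lipase that hydrolyses cholesteryl esters and triglycerides, read 4946 in Oma1_KO and 4693 in Oma1_WT (0.08). Gusb, the beta-glucuronidase, read 1167 in Oma1_KO and 1055 in Oma1_WT (0.15), and Gla, the alpha-galactosidase that cleaves globotriaosylceramide, 680 in Oma1_KO and 638 in Oma1_WT (0.09). Man2b1, an alpha-mannosidase, read 2882 in Oma1_KO and 2922 in Oma1_WT (-0.02), and Galns, a sulfatase of keratan sulfate, 343 in Oma1_KO and 362 in Oma1_WT (-0.08). These last 5 enzymes stayed within the SD, though with centring on all genes Gusb (0.21) passed it.

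Npc1 and Npc2 together move cholesterol out of the lysosome, Npc2 in the lumen and Npc1 in the membrane. Npc2 read 3809 in Oma1_KO and 3341 in Oma1_WT (0.19), and Npc1 1314 in Oma1_KO and 1169 in Oma1_WT (0.17). Both were higher in Oma1_KO by about the SD between probe sets. Psap, the precursor of the saposins that present sphingolipids to their hydrolases, read 11013 in Oma1_KO and 11219 in Oma1_WT (-0.03).

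The 6 membrane proteins, Npc1 among them, divided into 3 higher and 3 lower, with a median of 0.02. Lamp2, a glycoprotein of the lysosomal membrane that also serves autophagy, read 3972 in Oma1_KO and 4572 in Oma1_WT (-0.20), while its relative Lamp1 read 5812 in Oma1_KO and 5569 in Oma1_WT (0.06). Only Lamp2 passed the SD. With centring on all genes its difference was -0.14, inside the SD, while Npc1 (0.23) and Mcoln1 (0.20) passed it. Mcoln1, a calcium channel of the lysosome, read 1445 in Oma1_KO and 1310 in Oma1_WT (0.14). Scarb2, the receptor that carries beta-glucocerebrosidase to lysosomes, read 1232 in Oma1_KO and 1336 in Oma1_WT (-0.12), and Cln3, the protein of juvenile Batten disease, 605 in Oma1_KO and 611 in Oma1_WT (-0.01).

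The proton pump showed no common direction, with 3 of its 6 measured subunits higher and 3 lower and a median of -0.0037, which became 0.04 after quantile normalisation. In the membrane sector V0, Atp6v0d2, the d subunit known from osteoclasts and macrophages, read 3021 in Oma1_KO and 2554 in Oma1_WT (0.24). Its widely expressed counterpart Atp6v0d1 read 1629 in Oma1_KO and 1767 in Oma1_WT (-0.12). The 2 isoforms of the d subunit thus differed in sign, and only Atp6v0d2 passed the SD. In the catalytic sector V1, Atp6v1b2 read 3499 in Oma1_KO and 3239 in Oma1_WT (0.11), and Atp6v1a, the ATP-hydrolysing subunit, 2097 in Oma1_KO and 2020 in Oma1_WT (0.05). Atp6v1c1 read 896 in Oma1_KO and 935 in Oma1_WT (-0.06), and Atp6v1h, which regulates the coupling of the sectors, 538 in Oma1_KO and 597 in Oma1_WT (-0.15). All 4 V1 subunits lay within the SD, though with centring on all genes Atp6v1b2 narrowly passed it (0.172, against 0.169).

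Among the transcription factors, Tfeb read 307 in Oma1_KO and 268 in Oma1_WT (0.20), and Tfe3 785 in Oma1_KO and 854 in Oma1_WT (-0.12). Mitf had 2 probe sets. The bright one read 607 in Oma1_KO and 528 in Oma1_WT (0.20), and the other, at 13 in Oma1_KO and 14 in Oma1_WT (-0.10), was near the lowest values of the arrays, so the averaged difference of 0.05 understates the bright probe set. Genes with and without an E-box in their promoter windows stood on both sides: 6 of the 12 with one were higher and 6 lower (median 0.02), and of the 16 measured genes without one 11 were higher and 5 lower (median 0.06). For the 7 genes with the longer palindrome, 4 higher and 3 lower, the median was 0.05 and the range -0.12 to 0.14. Genes without a promoter window, Ctse among them, were left out of these counts.

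Other lysosomal genes, listed by function, also differed mostly by less than 1.5-fold, as did most genes on the array. Of all genes past the filter, 1.26% reached a 1.5-fold rise and 1.75% a 1.5-fold fall. Over 7 lists, 106 of 116 genes were measured, 92 of them past the filter. Of the 106, 52 were higher and 52 lower, with 1 at least 1.5-fold higher, 1 at least 1.5-fold lower and a median of 0.00. The one higher was Hgsnat, which acetylates heparan sulfate during its breakdown, at 1797 in Oma1_KO and 1170 in Oma1_WT (0.62). The one lower was Asah1, the acid ceramidase, at 1079 in Oma1_KO and 1685 in Oma1_WT (-0.64). Both belong to the list of other hydrolases and cofactors, whose 23 measured genes had 13 higher and 10 lower, with a median of 0.06. Of that list Aga, the aspartylglucosaminidase, read 476 in Oma1_KO and 636 in Oma1_WT (-0.42), and Ppt2, a thioesterase, 571 in Oma1_KO and 447 in Oma1_WT (0.35).

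Among 10 other lysosomal proteases 9 were higher in Oma1_KO and 1 lower, all by less than 1.5-fold, with a median of 0.08. Of the 10, 9 passed the filter, and their median was also 0.08. Lgmn, the asparaginyl endopeptidase that matures several cathepsins, read 3904 in Oma1_KO and 3502 in Oma1_WT (0.16), and Ctso, a cysteine cathepsin, 1053 in Oma1_KO and 1193 in Oma1_WT (-0.18). The 18 other pump subunits had 8 higher and 10 lower, with a median of -0.01. Tcirg1, the a3 subunit of osteoclast and macrophage lysosomes, read 1583 in Oma1_KO and 1302 in Oma1_WT (0.28), and Atp6v1g1 read 968.4 in Oma1_KO and 756.0 in Oma1_WT (0.36). On the lower side Atp6v0e2 read 491 in Oma1_KO and 609 in Oma1_WT (-0.31). Of 20 other lysosomal membrane proteins 9 were higher, 10 lower and 1 equal (median -0.02). Abcb9, a peptide transporter, read 146 in Oma1_KO and 196 in Oma1_WT (-0.42), and Clcn7, a chloride-proton exchanger, 644 in Oma1_KO and 524 in Oma1_WT (0.30). Of the inhibitors of cysteine cathepsins, Cstb, an intracellular stefin, read 4104 in Oma1_KO and 3582 in Oma1_WT (0.20), and Cst3, the secreted cystatin C, 11551 in Oma1_KO and 12343 in Oma1_WT (-0.10). The other 4 measured cystatins and stefins were below the filter.

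**Figure D5:**
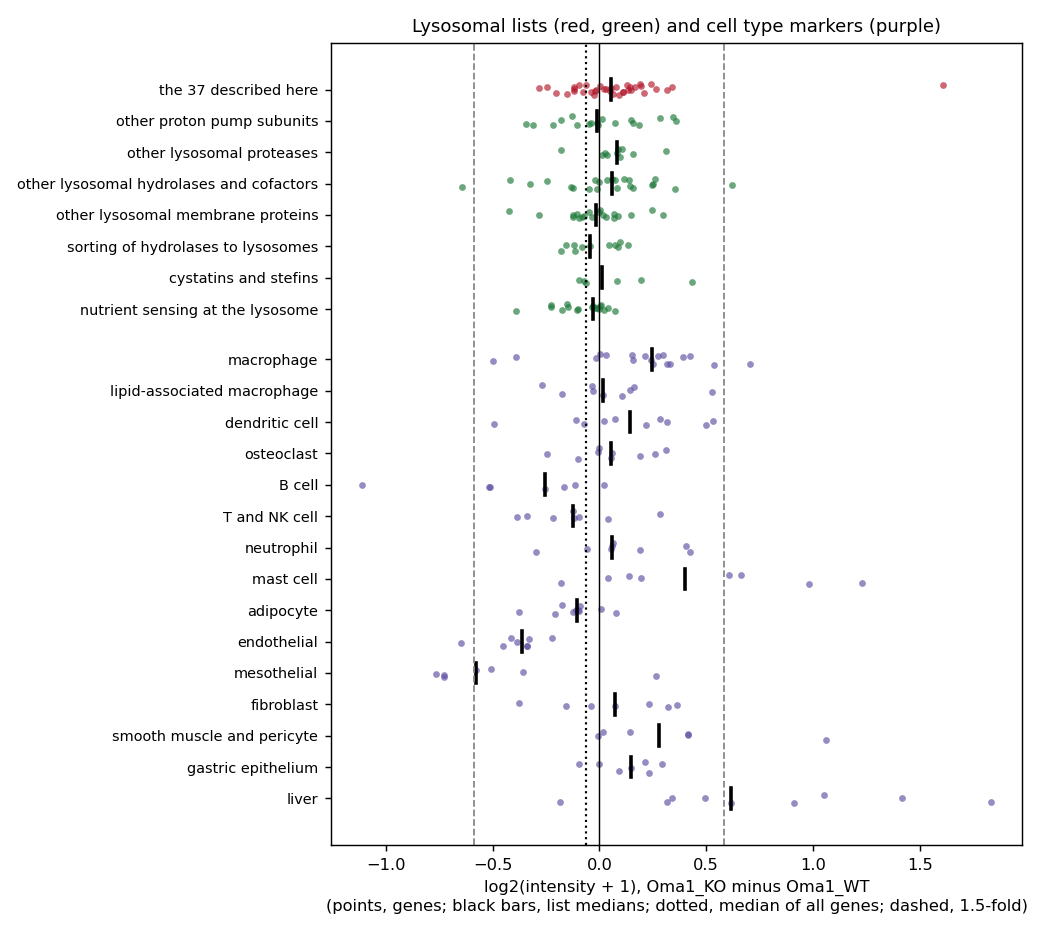
Difference between the arrays (log2(intensity + 1), Oma1_KO minus Oma1_WT) for every measured gene of the 37 lysosomal genes (red), 7 further lysosomal lists (green) and 15 lists of cell type markers (purple); black bars are list medians, the dotted line the median of all genes and dashed lines 1.5-fold. Macrophage markers have a median of 0.25, and the lysosomal lists centre near 0.

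Markers of cell types moved between the arrays too, and in whole tissue a change in the number of cells of a type and a change in RNA per cell cannot be told apart. For scale, 36.6% of all genes past the filter were higher and 62.3% lower, with a median of -0.06. Of 18 macrophage markers 15 were higher in Oma1_KO and 3 lower, with a median of 0.25, a summed intensity of 48698 in Oma1_KO and 42342 in Oma1_WT, and no marker below 147 in Oma1_KO or 101 in Oma1_WT. Fcgr1, an immunoglobulin receptor, read 503 in Oma1_KO and 308 in Oma1_WT (0.71), while Mertk, a receptor for dying cells, read 470 in Oma1_KO and 664 in Oma1_WT (-0.50). The 9 measured markers of lipid-associated macrophages had 5 higher and 4 lower and a median of 0.02, with a summed intensity of 39093 in Oma1_KO and 38820 in Oma1_WT. That sum is weighted to the brightest genes, such as Lpl at 9210 in Oma1_KO and 10389 in Oma1_WT (-0.17). The markers differed in both directions. Trem2 read 2241 in Oma1_KO and 1553 in Oma1_WT (0.53), and Fabp5 2345 in Oma1_KO and 2821 in Oma1_WT (-0.27). Osteoclast markers, listed because Ctsk, Atp6v0d2 and Tcirg1 mark those cells, had a median of 0.05 over 9 genes, 5 higher, 3 lower and 1 equal. Over the 6 osteoclast markers past the filter the median was 0.03. The part of macrophages in the lysosomal differences was not tested.

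Beside Ctse, the gastric epithelium markers were dim: none of 7 passed the filter, and they read 28 to 87 in Oma1_KO and 30 to 75 in Oma1_WT. Dendritic cell markers, 7 of 10 higher and 3 lower, had a median of 0.14, or 0.25 over the 8 past the filter. The largest rises in that list past the filter were those of class II histocompatibility chains, H2-Aa, H2-Ab1 (0.50) and H2-Eb1 (0.32). H2-Aa read 6754 in Oma1_KO and 4674 in Oma1_WT (0.53), while Cd209a, a lectin, read 397 in Oma1_KO and 560 in Oma1_WT (-0.50). B cell markers, 6 of 7 lower, had a median of -0.26, or -0.51 over the 3 past the filter. Beside Ctsc, 7 of 8 mast cell markers were higher, with a median of 0.40, or 0.61 over the 5 past the filter. The summed intensity of the 8 was 1827 in Oma1_KO and 1118 in Oma1_WT. Cpa3, a protease of mast cell granules, read 663 in Oma1_KO and 282 in Oma1_WT (1.23). Kit, the only lower marker of that list, read 187 in Oma1_KO and 212 in Oma1_WT (-0.18). Neutrophil markers had a median of 0.06, 6 of 8 higher, with 2 past the filter. Liver markers, 8 of 9 higher and 5 by at least 1.5-fold (1.26% of all genes past the filter), had a median of 0.62. Among them Apoa1 read 904 in Oma1_KO and 253 in Oma1_WT (1.83), a larger difference than that of Ctse. Alb read 4523 in Oma1_KO and 1692 in Oma1_WT (1.42). On the lower side, 8 of 8 endothelial markers (median -0.36), 6 of 7 mesothelial markers (-0.58) and 8 of 10 adipocyte markers (-0.10) were lower. Of all genes past the filter 62.3% were lower, and the adipocyte median lay near their median of -0.06. T and NK cell markers had 2 of 8 higher (median -0.12, or -0.17 over the 4 past the filter). Fibroblast markers had 4 of 7 higher (0.07), and smooth muscle and pericyte markers 5 of 6 (0.28). Adipoq, the adiponectin gene, read 5255 in Oma1_KO and 6832 in Oma1_WT (-0.38). It was the lowest of the 10 adipocyte markers, the highest of which stood at 0.08. Whether these shifts contributed to Ctse or Ctsc was not tested.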

How the data were processed

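The deposited values are the authors' intensities, linear and rounded to whole numbers, with 1 for each probe set on each array, from biotin-labelled total RNA on Affymetrix Mouse Gene 1.0 ST arrays, per the labels. How the authors corrected background, summarised probes and scaled arrays is not given in the sources used here, but both arrays share the same median. Probe sets with a single symbol in GEO's platform annotation (21789 of 35512) were used, and those of 1 gene were averaged after log2(intensity + 1), computed here. Listed genes were matched by symbol, or through RefSeq synonyms (GRCm38.p6) where the symbol was absent. Sizes of 1.5-fold and 2-fold stand in for calls, since 1 array per group allows no test and limits the precision. Promoters came from RefSeq. The members and lists were chosen with earlier results of these data known. The text names all members, Oma1 and at most 4 genes past the filter with the largest absolute difference of each further list. Alternatives were quantile normalisation, loess (span 0.3), centring, the brightest probe set, a pseudocount of 16, and other filters. The scripts were tested on simulated data. Python 3.11.15, numpy 2.4.6, pandas 2.3.3, statsmodels 0.14.6 and matplotlib 3.10.9 were used.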

Additional observations from a re-analysis of the deposited data

How the results depend on the processing

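Ctse kept its direction and its place past 1.5-fold under quantile normalisation, loess and a pseudocount of 16, with differences of 1.48 to 1.65. Centring adds 0.06 to every gene, and Ctse has 1 probe set. Neither centring nor the brightest probe set could therefore bring Ctse below 1.5-fold. No lysosomal gene came to be 1.5-fold lower under these 5 alternatives. Under a filter at the upper quartile, an intensity of 326, 33 lysosomal genes were left, and since Ctse was not among them the count at least 1.5-fold higher became 0. There the median of the transcription factors was -0.12, as Tfe3 alone remained, and the counts over all genes became 54 higher and 81 lower, since fewer genes were counted. With no filter 229 genes were higher. Over all genes the 1.5-fold split was 143 higher and 199 lower, but 169 and 147 after quantile normalisation, 165 and 154 after loess, and 182 and 139 after centring. Centring changed the sign of 4 lysosomal genes (Cln3, Ctsd, Man2b1 and Psap), giving 27 higher and 10 lower. The median of the lysosomal genes stayed between 0.03 and 0.11 in all 7 alternatives, 0.05 to 0.12 above that of all genes. Part of this was fixed beforehand. Centring could not change the gap to all genes. Dropping the filter could not change the lysosomal median, since all measured lysosomal genes passed. The brightest probe set could change only Mitf among the lysosomal genes. No paired analysis was possible because each group holds 1 array, and no sample could be left out. Dim genes are coarse through rounding and have no detection call.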

Other observations

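Genes that deliver hydrolases to lysosomes and that sense nutrients on the lysosomal surface were counted above only within the total over 7 lists. Of 11 measured sorting genes 5 were higher in Oma1_KO and 6 lower, 0 by 1.5-fold, with Sort1, a sorting receptor, at 2253 in Oma1_KO and 2514 in Oma1_WT (-0.16), and Gnptg, a subunit of the enzyme that makes the mannose 6-phosphate tag, at 539 in Oma1_KO and 492 in Oma1_WT (0.13). Nutrient sensing genes had a median of -0.03, and of the 18 measured 12 were lower, 5 higher and 1 equal. Over the 16 past the filter the median was -0.07. All genes past the filter had a median near that, -0.06, and 62.3% of them were lower. Rragc, a Rag GTPase, read 764 in Oma1_KO and 895 in Oma1_WT (-0.23), Rptor, the raptor subunit of the mTORC1 kinase, 388 in Oma1_KO and 454 in Oma1_WT (-0.23), and Tfec, a relative of Tfeb, 125 in Oma1_KO and 164 in Oma1_WT (-0.39).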
